A study of Mus musculus with 8 samples.

Results

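The regions described here are the centromere-proximal 5 Mb of the 19 mouse autosomes, from 3.1 to 8.1 Mb of each chromosome in build mm10. Adenines called as modified were taken from 4 deposited lists, and every line on chromosomes 1 to 19 in that range was a member. This gave 610 of the 17418 lines in the 4 lists, at 609 distinct bases. They were compared with the 14521 autosomal lines above 8.1 Mb, without 3 short satellite-rich windows at chr14:19400001-19500000, chr2:98600001-98700000 and chr9:35300001-35310000.

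The study immunoprecipitated H2A.X, a histone variant, from native chromatin of TT2 mouse embryonic stem (ES) cells with a customized antibody and sequenced the DNA on single molecules. TT2 cells come from a cross of C57BL6 and CBA mice, and they were used at passage 5 to 10 without feeder cells. The groups were Alkbh1 knockout (KO) and wild-type (WT) cells, each with a long (L) and a short (S) DNA part. Each of the 4 groups had 2 replicates but only 1 list, so differences between groups have no replicate check, and the p-values below measure counting error between lists with sites treated as independent. The labels do not say how many KO clones were used. Only called bases are listed. The loss of Alkbh1 could therefore not be checked, and the depth at bases without a call is unknown.

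All mouse autosomes have their centromere at one end. The centromere itself is built on the minor satellite, and the pericentromeric heterochromatin next to it on long arrays of the major satellite, a tandem repeat. The reference assembly leaves most of these arrays as a gap at the start of each chromosome, and the first assembled megabases follow that gap. N6-methyladenine carries a methyl group on the adenine base, and ALKBH1 is a dioxygenase of the AlkB family that has been described as a demethylase for it in mouse ES cells. In single-molecule sequencing the polymerase pauses at some modified bases. The pause is given as an inter-pulse duration (IPD) ratio, the observed pause over the one predicted without a modification.

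The proximal sites that matter most below are of 2 kinds. The first kind is a patch of major satellite on chromosome 12, shown because all 6 satellite-like proximal calls and the only base called in 2 lists lay there. Each context runs 5′ to 3′ on the called strand of mm10, with the called adenine in capitals.
WT S, chr12:3109892, plus strand: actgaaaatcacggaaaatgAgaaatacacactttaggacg
WT L, chr12:3109947, plus strand: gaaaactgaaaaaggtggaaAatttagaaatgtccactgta
KO S and WT S, chr12:3109951, minus strand: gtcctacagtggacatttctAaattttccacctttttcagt
KO S, chr12:3110040, plus strand: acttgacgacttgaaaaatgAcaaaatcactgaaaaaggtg
WT S, chr12:3110094, minus strand: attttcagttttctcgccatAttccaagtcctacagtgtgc

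The second kind is a short run of calls in a single list, shown because such runs were the densest places outside the satellite patch. These stretches are given on the plus strand of mm10, with capital A for a call on the plus strand and capital T for a call on the minus strand.
KO S, chr15:3882704-3882762: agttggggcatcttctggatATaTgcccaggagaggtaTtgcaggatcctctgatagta
KO S, Tiam2, chr17:3390518-3390579: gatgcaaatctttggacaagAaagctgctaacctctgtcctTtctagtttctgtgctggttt
WT S, chr14:3149061-3149148: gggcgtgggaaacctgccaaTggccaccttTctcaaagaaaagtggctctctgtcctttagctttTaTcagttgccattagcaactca
WT S, Gm2885, chr17:6823449-6823492: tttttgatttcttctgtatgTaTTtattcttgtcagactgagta

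The density of called adenines in the proximal 5 Mb did not differ past the test from that of the windows that follow it. There were 94 proximal sites in KO L, 144 in WT L, 134 in KO S and 238 in WT S. These were 3.40% of the autosomal sites in KO L (exact 95% interval 2.75% to 4.14%), 4.06% in WT L (3.44% to 4.77%), 4.34% in KO S (3.65% to 5.12%) and 3.59% in WT S (3.16% to 4.07%). Every autosome had at least 1 proximal site in every list.

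The number of sites was set against the mean of the next 10 windows of 5 Mb on each chromosome. Those windows held 98.9 ± 15.5 sites in KO L, 126 ± 13 in WT L, 111 ± 10.7 in KO S and 236 ± 15.6 in WT S (SD over 10 windows). The ratio of the proximal count to that mean was 0.95 in KO L (exact 95% interval 0.761 to 1.18) and 1.15 in WT L (0.957 to 1.36). In KO S it was 1.20 (1.00 to 1.44), and in WT S it was 1.01 (0.878 to 1.15). Of the 11 windows, the proximal one ranked 7 in KO L, 2 in WT L, 1 in KO S and 7 in WT S. KO S gave an exact binomial p of 0.0433, which became 0.173 after Benjamini-Hochberg adjustment over the 4 lists, and the adjusted p was 0.891 in KO L, 0.250 in WT L and 0.891 in WT S.

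**Figure D1:**
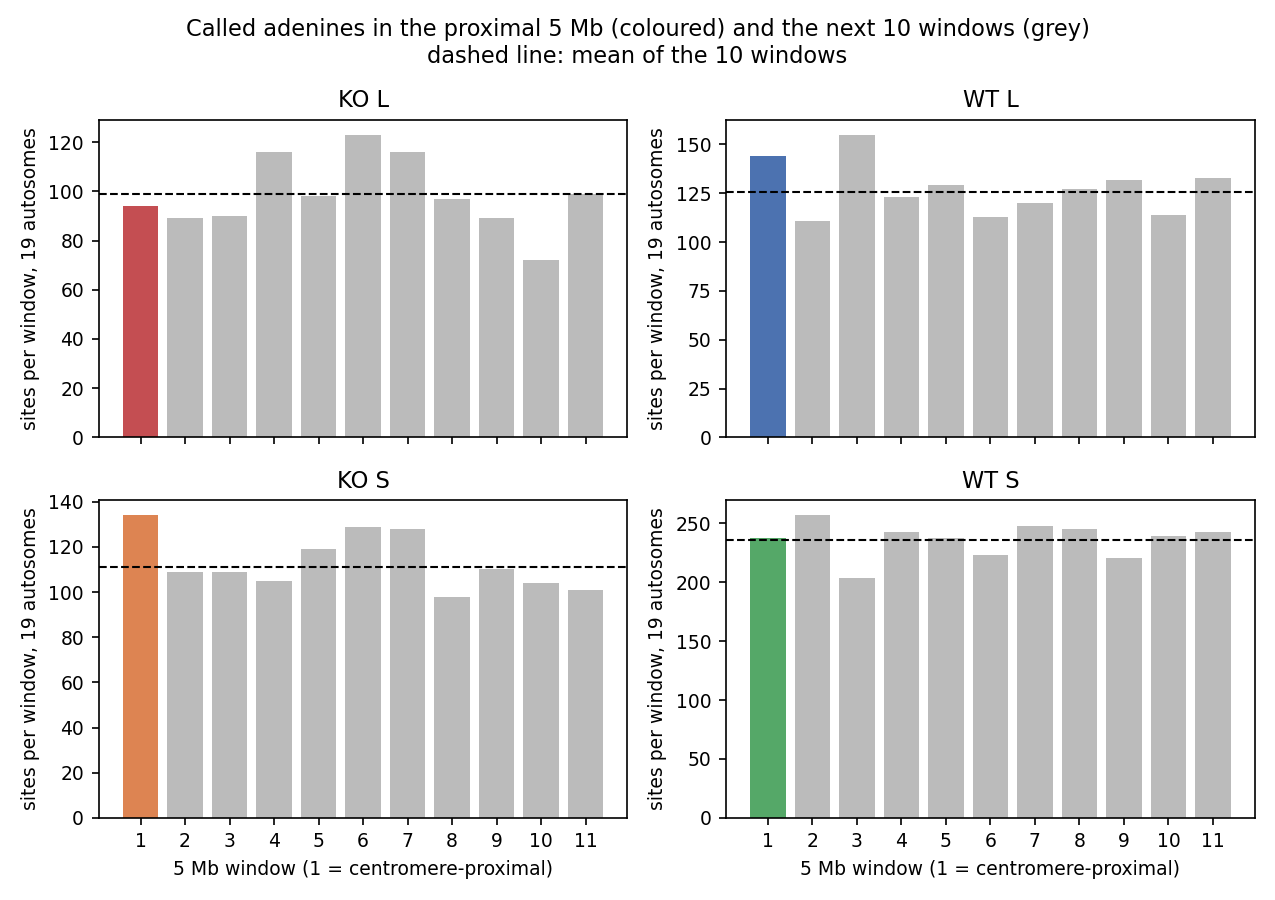
Called adenines per 5 Mb window over the 19 autosomes (vertical axis) for the proximal window (1, coloured) and the next 10 windows (2 to 11, grey), in a panel for each list, with the mean of the 10 windows dashed. The proximal bar stands above all 10 others only in KO S (134 sites), and lies near the dashed line in WT S (238 sites).

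The KO lists held fewer proximal sites than the WT lists, as they did elsewhere. In L, 94 sites in KO stood against 144 in WT, a ratio of 0.653, and the ratio in the rest of the autosomes was 0.768 (2470 sites in KO and 3217 in WT). In S, 134 sites in KO stood against 238 in WT, a ratio of 0.563, and the ratio in the rest was 0.451 (2744 in KO and 6090 in WT). The KO to WT odds ratio of lying in the proximal 5 Mb was 0.850 in L (95% interval 0.645 to 1.12, Fisher's exact test, adjusted p = 0.256) and 1.25 in S (0.999 to 1.56, p = 0.0457, adjusted p = 0.0914). Neither passed after adjustment over the 2 parts. By the same exact test, the odds ratio in S was 1.31 with sites of coverage under 25 alone (adjusted p = 0.0401) and 1.32 without chromosome 6 (adjusted p = 0.0321).

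The L and S parts did not differ past the threshold in either genotype. By Fisher's exact test, the L to S odds ratio was 0.779 in KO (95% interval 0.589 to 1.03, adjusted p = 0.156) and 1.15 in WT (0.921 to 1.42, adjusted p = 0.208). These intervals hold ratios on both sides of 1, so they do not show that the parts are alike.

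Within the proximal 5 Mb, the sites were densest in its first megabase. From 3.1 to 4.1 Mb there were 27 sites in KO L, 39 in WT L, 40 in KO S and 63 in WT S. In all this was 169 of 610 sites, or 27.7% (exact 95% interval 24.2% to 31.4%), where the other 4 megabases held 95 to 124 sites each. Over the 4 lists together, none of the other 54 bins of 1 Mb in the 11 windows reached 169, and they ranged from 82 to 151 with a median of 113. By list, 6 of the 54 bins were as high in KO L, 1 in WT L, 0 in KO S and 0 in WT S. The 1 Mb bins were looked at after the proximal counts were known, so no test is given.

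Over the 4 lists together, the first megabase was also the fullest when runs of neighbouring sites were counted once. With 1 site kept per 1 kb cluster it held 130 of 506 sites (25.7%), and the other 54 bins held 77 to 117. By list, 9 of the 54 bins were then as high in KO L, 1 in WT L, 1 in KO S and 1 in WT S, and the share in KO S was 23.2%, against 29.9% with every site. Without satellite-like contexts it held 163 of 604 sites (27.0%). The first megabase held more sites than the mean megabase of the next 10 windows on 12 of the 19 chromosomes. Chromosome 12 had the most, with 1 site in KO L, 6 in WT L, 5 in KO S and 8 in WT S, and chromosomes 11, 5 and 8 followed with 16, 14 and 14 sites. Of the 20 sites on chromosome 12, 6 were the calls of the satellite patch, and without them it fell below chromosome 11. Chromosomes 6 and 9 had 3 sites each.

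**Figure D2:**
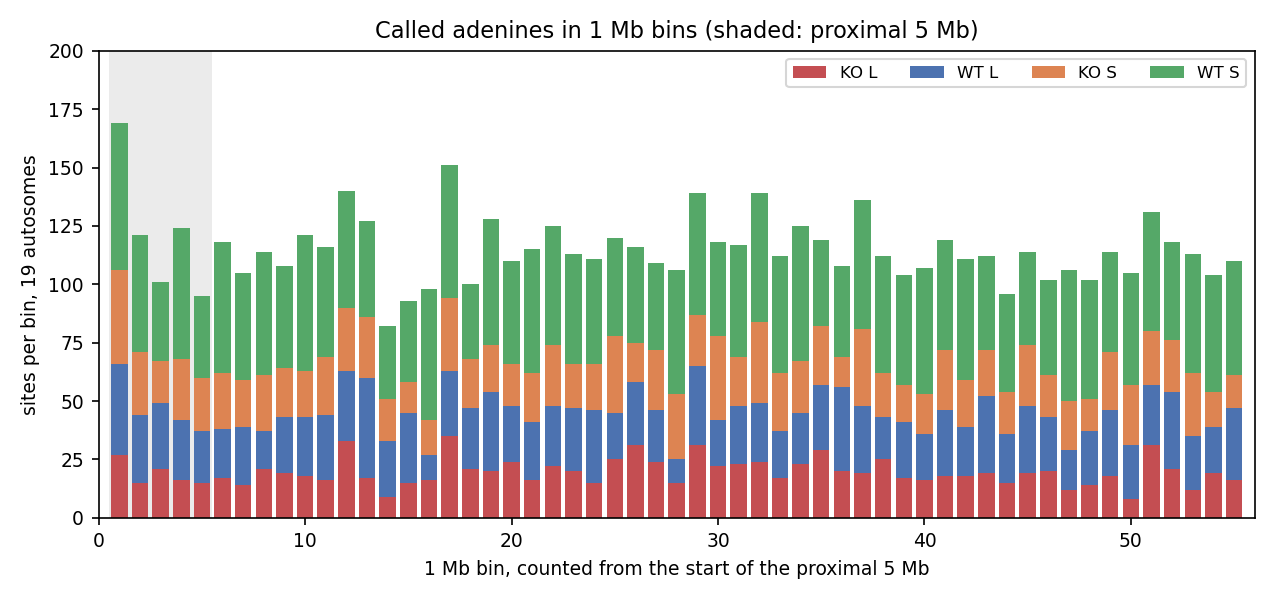
Called adenines per 1 Mb bin over the 19 autosomes (vertical axis), stacked by list, for 55 bins counted from the start of the proximal 5 Mb, which is shaded. The first bin, with 169 sites, is the highest of the 55, and the next highest holds 151.

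The proximal sites were spread unevenly over the chromosomes. Totals over the 4 lists ran from 19 on chromosome 3 to 55 on chromosome 17, with a median of 32. On chromosome 17 there were 8 sites in KO L, 12 in WT L, 13 in KO S and 22 in WT S, and the 55 sites stood against a mean of 32.9 in the next 10 windows, a ratio of 1.67. Chromosome 16 held 43 sites against 26.6 (ratio 1.62), and chromosome 4 held 39 against 25.3 (ratio 1.54). On these 3 chromosomes the proximal window was the richest of the 11. At the other end, chromosome 14 had 21 sites against 30.8, a ratio of 0.682, and chromosome 3 had 19 against 26.7. These chromosomes were picked for their counts, so no test is attached.

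KO had more proximal sites than WT on 5 chromosomes in L and on 2 in S. WT had more on 13 and on 16, and the counts were equal on 1 chromosome in each part. The WT lists were longer in the rest of the autosomes too, with 3217 sites against 2470 in L and 6090 against 2744 in S. No genotype difference is drawn from the counts of single chromosomes. In L the widest gap was on chromosome 12, with 2 sites in KO and 13 in WT. In S it was on chromosome 6, with 3 in KO and 17 in WT. Chromosome 19 ran the other way in both parts, with 8 in KO and 6 in WT for L and the same pair of counts for S.

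**Figure D3:**
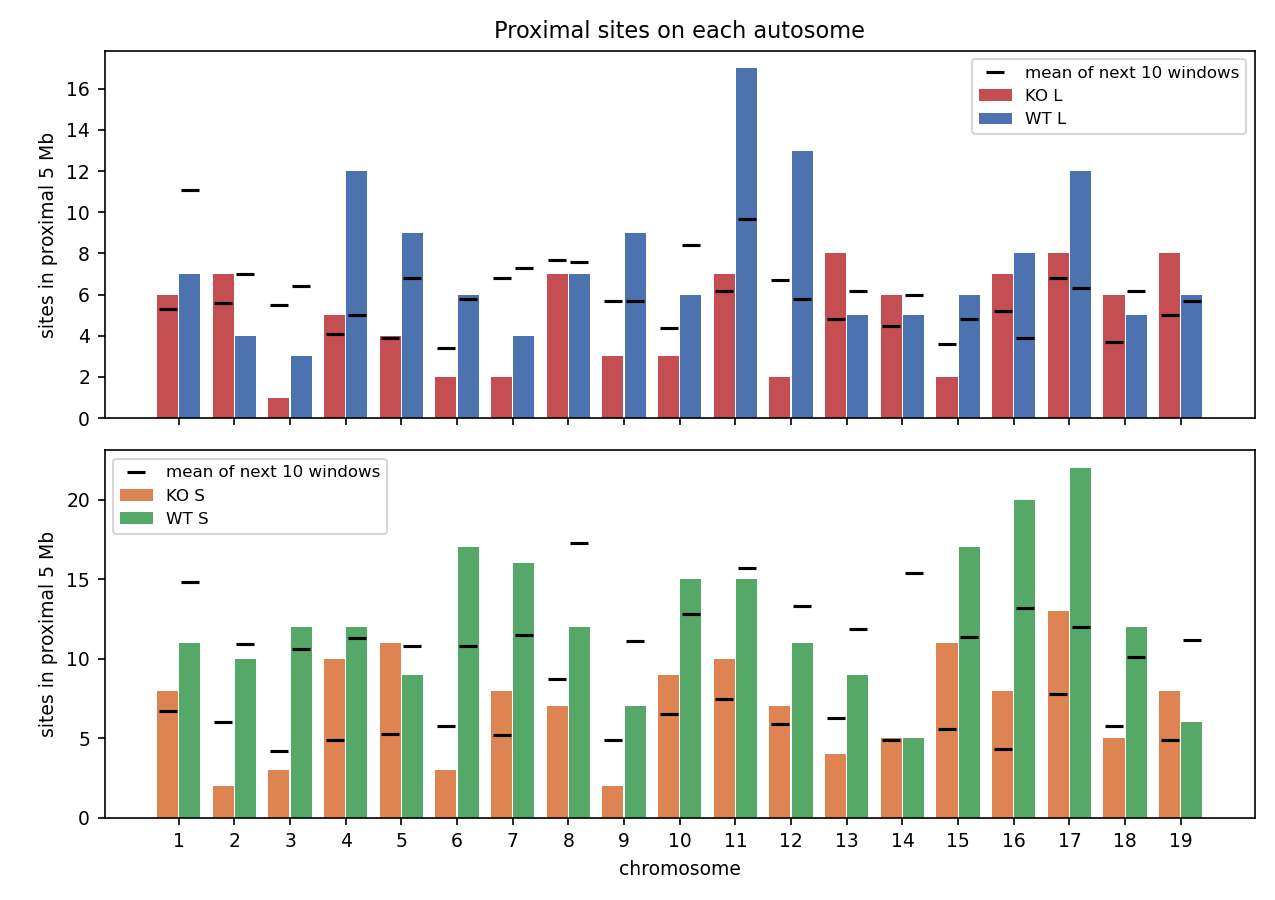
Sites in the proximal 5 Mb of each autosome (vertical axis), KO left of WT, for L in the upper panel and S in the lower, with a black dash for the mean of the next 10 windows in the same list. Chromosome 11 is highest in WT L with 17 sites, and chromosome 17 is highest in WT S with 22 and in KO S with 13.

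In both S lists, proximal sites lay inside genes less often than sites elsewhere on the autosomes. Genes were taken from start to end in the RefSeq table of GRCm38.p6, the assembly behind mm10. In KO S, 54 of 134 proximal sites were in a gene, or 40.3% (exact 95% interval 31.9% to 49.1%), against 52.6% in the rest (Fisher's exact test, adjusted p = 0.0238). In WT S, 101 of 238 were, or 42.4% (36.1% to 49.0%), against 54.0% in the rest (Fisher's exact test, adjusted p = 0.00656). In L the shares were 46.8% in KO (36.4% to 57.4%) against 52.1% in the rest, and 48.6% in WT (40.2% to 57.1%) against 54.0% in the rest, with an adjusted p of 0.462 for each. P-values were adjusted over 12 tests, which are 3 measures in 4 lists, and the difference between L and S was not tested.

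Genes cover 46.6% of the length of the proximal 5 Mb and 49.5% of the rest of the autosomes, and the part of this in the difference was not tested. Of the 5 megabases, the last had the lowest share of sites in genes and the lowest gene cover. There 28.4% of 95 sites lay in a gene (exact 95% interval 19.6% to 38.6%), and genes cover 38.2% of the length. In the other 4 megabases genes cover 46.1% to 52.3%, and the share in genes was lowest in the first, at 44.4% (36.8% to 52.2%). Against the next 5 Mb alone, and for sites of coverage under 25 alone, the difference passed the exact test in neither S list. It was -14.75 and -12.62 percentage points in KO S (exact test, adjusted p = 0.335 and 0.0788) and -6.98 and -8.29 in WT S (exact test, adjusted p = 0.503 and 0.132), where with all sites it was -12.29 in KO S and -11.57 in WT S. In KO S it also failed without chromosome 4, 6, 7 or 11.

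Gene classes were compared in the same way. Among all sites, 34.0% of the proximal ones in WT S lay in a protein-coding gene, against 45.5% in the rest (Fisher's exact test, adjusted p = 0.0233). In KO S only 3 of 134 lay in a long non-coding RNA gene, or 2.24%, against 9.55% in the rest (Fisher's exact test, adjusted p = 0.0420). These were the only 2 of 44 further comparisons to pass, in a family of 11 measures in 4 lists that was added after the data were seen. In the other lists the share in protein-coding genes was 36.2% in KO L against 43.4% in the rest, 37.5% in WT L against 45.4%, and 36.6% in KO S against 43.95%. The share in long non-coding RNA genes was 10.6% in KO L against 8.74% and 10.4% in WT L against 8.55%, above the rest in both L lists. In WT S it was 6.72% against 8.75%.

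The share of called adenines followed by G passed no test against the rest. The share of proximal sites in an AG pair was 22.3% in KO L (exact 95% interval 14.4% to 32.1%), against 22.7% in the rest, and 24.3% in WT L (17.6% to 32.1%), against 20.9%. In KO S it was 25.4% (18.3% to 33.6%), against 27.7%, and in WT S it was 23.9% (18.7% to 29.9%), against 20.9%. The lowest adjusted p of the 4 was 0.462. Among the other adenines of the same proximal contexts, the share followed by G was 22.03% in KO L, 25.04% in WT L, 26.03% in KO S and 23.73% in WT S.

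In the rest of the autosomes, the AG share of S was 6.81 percentage points higher in KO than in WT (Fisher's exact test, adjusted p = 1.44e-11, without a replicate check). In the proximal 5 Mb the same difference was 1.42 points (Fisher's exact test, adjusted p = 0.802), over 134 sites in KO S and 238 in WT S. The odds ratio was 1.08 (0.639 to 1.81) in the proximal part and 1.45 (1.31 to 1.61) in the rest. In L the difference was 1.85 points in the rest (Fisher's exact test, adjusted p = 0.195) and -1.97 points in the proximal 5 Mb (Fisher's exact test, adjusted p = 0.802). An exact test of the AG odds ratios in S, proximal against rest in KO set against that in WT (Zelen's test), gave p = 0.259, adjusted 0.388, so these counts could not tell the odds ratios apart.

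**Figure D4:**
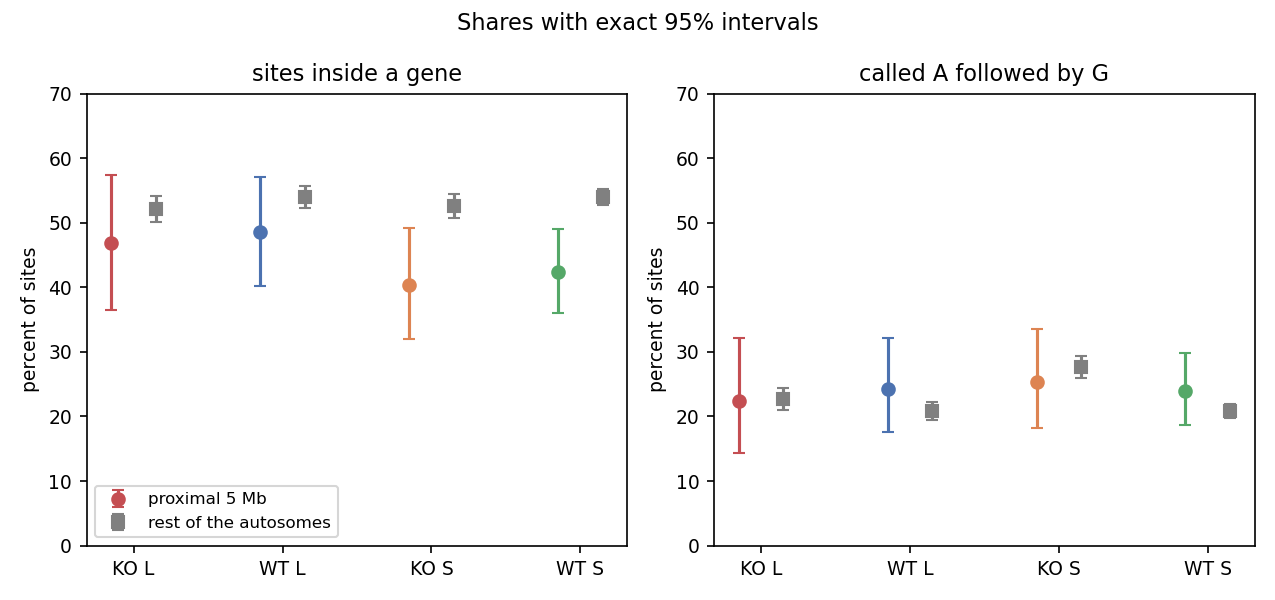
Percent of sites inside a gene (left panel) and percent of called adenines followed by G (right panel) in each list, for the proximal 5 Mb (coloured circles) and the rest of the autosomes (grey squares), with exact 95% intervals. The proximal share in genes lies below the rest in all 4 lists, by 12.3 points in KO S and 11.6 in WT S, and the AG intervals overlap in every list.

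Median IPD ratios lay close to those elsewhere in WT L, KO S and WT S, and lower in KO L, where the intervals overlap. The median IPD ratio was 2.45 in KO L (95% order-statistic interval 2.32 to 2.70), against 2.68 in the rest (2.62 to 2.73), and 2.71 in WT L (2.53 to 2.92), against 2.65. It was 2.70 in KO S (2.48 to 2.98), against 2.76, and 2.61 in WT S (2.49 to 2.78), against 2.63. A ratio of 4 or more was found at 5 of 94 proximal sites in KO L, or 5.32%, against 15.2% in the rest (p = 0.00483 by Fisher's exact test, adjusted p = 0.0708). In WT L the share was 20.8%, against 15.7%. The median deposited coverage was 10.5 in KO L, 9 in WT L, 11 in KO S and 13 in WT S, against 10, 10, 11 and 14 in the rest.

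The modified fraction was deposited only for coverages from 11. Its median was 70% over 47 sites in KO L, against 70.4% in the rest, and 66.5% over 59 in WT L, against 74.6%. It was 82.4% over 71 sites in KO S, against 78.8%, and 71.3% over 160 in WT S, against 72.4%. The proximal intervals were 59.1% to 85.0% in KO L, 57.9% to 75.1% in WT L, 67.4% to 99.1% in KO S and 63.0% to 78.1% in WT S, and the rest in WT L had an interval of 72.6% to 76.8%. The GC content of the 41-base contexts had a median of 42.7% in KO L, 40.2% in WT L, 43.9% in KO S and 41.5% in WT S, against 41.5% in the rest of every list.

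The site with the highest IPD ratio in each list had a coverage of 7 to 13. These sites are shown because each has the highest IPD ratio among the proximal calls of its own list. The context is on the called strand, with the called adenine in capitals.
KO L, Nox3, chr17:3635859, IPD ratio 7.78, coverage 7: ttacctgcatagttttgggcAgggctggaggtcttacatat
WT L, Vps50, chr6:3574211, IPD ratio 13.58, coverage 8: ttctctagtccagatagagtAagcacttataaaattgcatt
KO S, outside genes, chr11:4443323, IPD ratio 10.92, coverage 7: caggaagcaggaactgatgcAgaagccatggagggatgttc
WT S, outside genes, chr10:7294050, IPD ratio 11.29, coverage 13: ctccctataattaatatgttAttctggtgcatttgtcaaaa
Nox3 encodes an NADPH oxidase needed in the inner ear, and Vps50 a subunit of an endosomal recycling complex.

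The identification score, which states how well the pause pattern fits N6-methyladenine, reached 33 in KO L at chr14:6690218 in Gm26680. It reached 42 in WT L at chr7:4370745 in Gp6, which encodes a platelet collagen receptor. In S the highest was 70 in KO at chr12:3110040 in the satellite patch and 91 in WT at chr4:7007546 outside genes. At that last base the coverage was 29, the IPD ratio 2.46 and the modified fraction 83.2%. The site with the highest coverage outside the satellite patch was chr8:4409754 in WT S, with a coverage of 80, an IPD ratio of 5.04 and a modified fraction of 79.0%.

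The satellite patch on chromosome 12 stood apart from all other proximal sites in coverage, and 5 of its 6 calls had a lower IPD ratio than any other proximal site. It spans chr12:3109892-3110094 and lies outside genes. It held 0 calls in KO L, 1 in WT L, 2 in KO S and 3 in WT S. Coverage at these calls was 423 in WT L, 1112 and 839 in KO S, and 541, 2027 and 757 in WT S. The IPD ratios were 1.29 in WT L, 1.34 and 1.29 in KO S, and 1.32, 1.35 and 1.55 in WT S, and the modified fractions ran from 3.4% to 17%. No other proximal site had a coverage above 80.

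Satellite-like contexts were those with at least 3 of their 12-base words in common with called contexts from the first assembled 40 kb of chromosome 9, a stretch of major satellite. All 6 contexts of the patch shared 28 to 30 of 30 possible words. In the rest of the autosomes 29 lines met the rule, with a median of 3 shared words and at most 18. The share of satellite-like sites was 1.49% in KO S (2 of 134), against 0.182% in the rest (5 of 2744), and 1.26% in WT S (3 of 238), against 0.115% (7 of 6090). Leaving out the 3 satellite-rich windows lowered these shares of the rest, since 76 of their 85 sites in KO S and 89 of their 99 in WT S were satellite-like. With those windows put back, the rest held 2.86% in KO S and 1.55% in WT S, above the proximal shares, so no difference is drawn from this comparison.

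At chr12:3109951 on the minus strand, the only base shared by 2 lists, KO S had a coverage of 1112, an IPD ratio of 1.34 and a modified fraction of 6.9%. WT S had a coverage of 2027, an IPD ratio of 1.35 and a modified fraction of 5.3%. The same 41 bases, printed above, were the context of 22 more lines in the lists: 14 on chromosome 9, 3 on chromosome 2, 2 on chromosome 14 and 3 on an unplaced contig. Reads from such copies can be placed at any of them, so the position of these calls is uncertain.

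**Figure D5:**
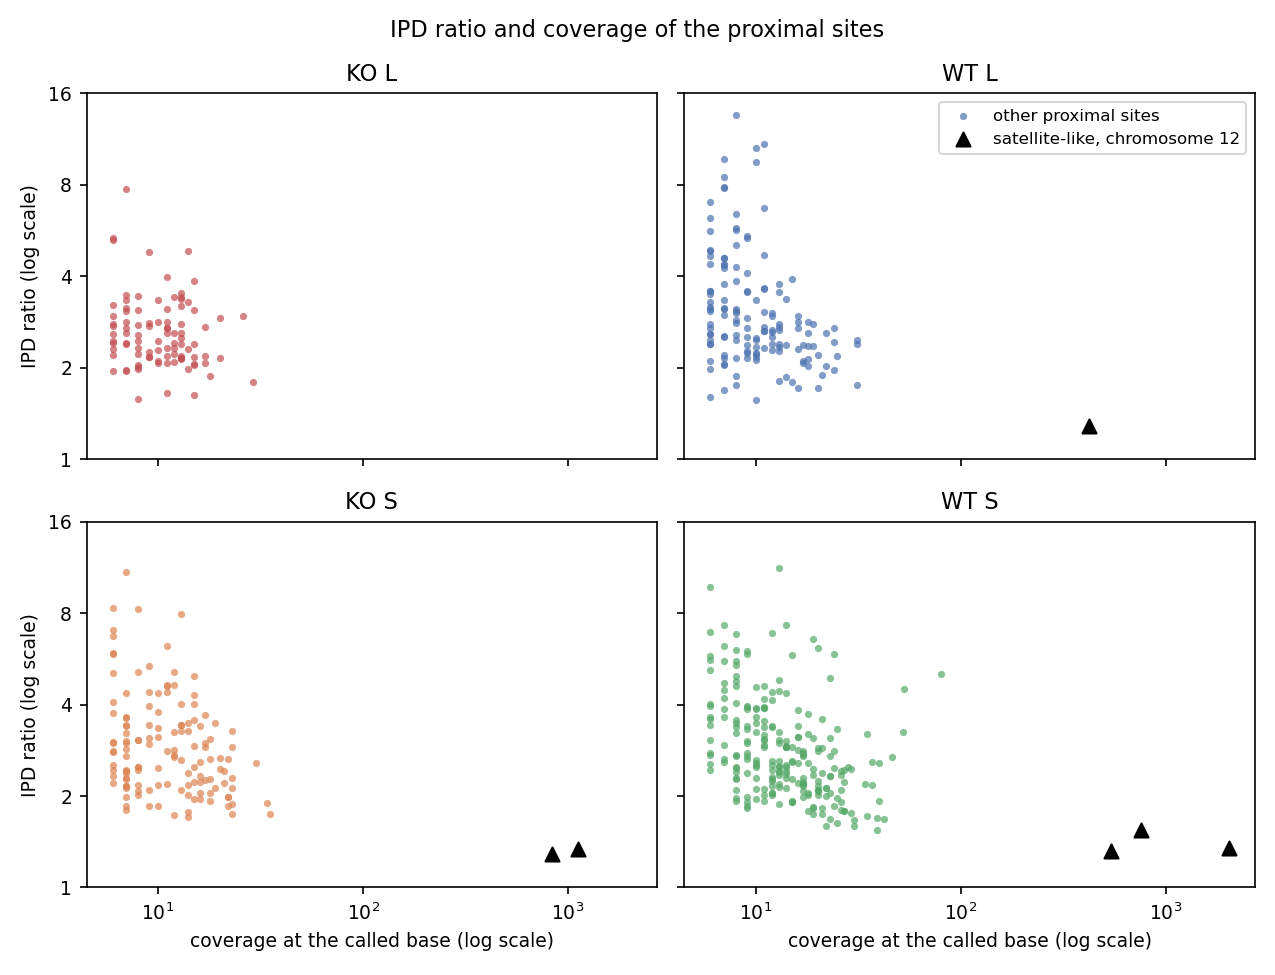
IPD ratio (vertical axis, log scale) against coverage at the called base (horizontal axis, log scale) for every proximal site, in a panel for each list, with the satellite-like sites of chromosome 12 as black triangles. The triangles lie at coverages of 423 to 2027 and IPD ratios of 1.29 to 1.55, to the right of all other sites, and 5 of the 6 lie below every other site.

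Apart from that base, no proximal adenine was called in more than 1 list. None of the 94 sites in KO L was shared with WT L, which allows a shared share of up to 3.19% (3 counts), and 1 of 134 in KO S was shared with WT S. In the rest of the autosomes sharing was as rare, with 2 of 2470 sites in KO L and 1 of 2744 in KO S. In the windows left out and below 3.1 Mb, which are rich in satellite, 85 of 203 sites in KO L were shared with WT L and 107 of 207 in KO S with WT S. Sites of the other genotype were also looked for nearby. No KO L site lay within 1000 bases of a WT L site, and 2 of 134 KO S sites lay within 1000 bases of a WT S site. Those 2 were the KO S calls of the satellite patch. Within 10000 bases the counts were 1 of 94 in KO L and 7 of 134 in KO S. The rest of the autosomes was not counted this way, so no trait of the proximal part is drawn from these counts.

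Calls often stood close together within a list. There were 16 runs of 3 or more calls with gaps under 1 kb, and they held 54 of the 610 sites. No count of runs is given for the rest of the autosomes, so they are not called a trait of the proximal part. KO L had 1 run, WT L 1, KO S 6 and WT S 8. At chr15:3882724-3882834, outside genes, KO S had 5 calls with IPD ratios from 1.85 to 7.95, and 4 of them fall in the first sequence of the second set above. At chr14:3149025-3149128, also outside genes, WT S had 5 calls, all on the minus strand, with IPD ratios from 1.54 to 2.59 at coverages of 34 to 40. These were the fullest of the 10 kb windows, and neither held a call in any other list. The contexts of the chr15 calls shared 3 or more 12-base words with those of 17 to 23 called lines at other loci. None of the chr14 contexts did. Such sharing was common, satellite-like contexts aside, at 40.4% of proximal sites in KO L, 42.4% in WT L, 42.5% in KO S and 44.1% in WT S. In the rest it was 36.6%, 36.6%, 35.6% and 38.5%, and no list passed (Fisher's exact test, lowest adjusted p = 0.428). Whether reads from such loci were placed in the chr15 run, or at the other sites with shared contexts, was not tested. The position of these calls is therefore uncertain.

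Several runs lay inside genes. In Tiam2, which encodes an exchange factor for the GTPase Rac, KO S had 4 calls within 171 bases at coverages of 15 to 35. In Gm2885, a long non-coding RNA gene, WT S had 3 calls on the minus strand within 4 bases. Sfi1, which encodes a centrosomal protein, had 4 calls in WT S within 1805 bases. Frmd8, Efr3b and Alkal1 had 3 calls each in KO S, within 115, 247 and 359 bases, and Adcy1, an adenylate cyclase gene, had 3 in WT S within 143. The only runs in L were 3 calls in KO L in Gm33007 and 3 in WT L at chr5:6311811-6312887 outside genes.

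The share of sites with another call of the same list within 1 kb was 33.0% in KO L against 23.7% in the rest, and 24.3% in WT L against 23.3%. It was 26.1% in KO S against 24.96%, and 35.7% in WT S against 29.1%. None of these passed adjustment over the 44 comparisons (lowest adjusted p = 0.324, Fisher's exact test).

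Of 1905 genes that overlap the proximal 5 Mb, 167 held a called site, and 109 of those held only 1. There were 31 with 3 or more sites, and the 25 richest are described here. Long genes offer more adenines, and 16 of the 25 were over 100 kb. Sites from both genotypes fell in 20 genes, and sites from all 4 lists in 2 of them.

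Those 2 genes were Rbfox1 and Esr1. Rbfox1, a splicing regulator of neurons and muscle, lies at chr16:5884793-7412480 and is 1528 kb long. It held the most sites, with 1 in KO L, 3 in WT L, 1 in KO S and 3 in WT S, and their IPD ratios ran from 1.57 to 3.11. Esr1, the estrogen receptor alpha gene, lies at chr10:4611989-5005633 and held 1 site in KO L, 1 in WT L, 1 in KO S and 2 in WT S.

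Several other named genes encode chromatin proteins, kinases, receptors or growth factors. Arid1b, a subunit of the BAF chromatin remodelling complex, lies at chr17:4994297-5347656. It had 0 sites in KO L, 2 in WT L, 0 in KO S and 5 in WT S, so all 7 came from WT. The WT lists were longer over all proximal sites too, with 144 against 94 in L and 238 against 134 in S. No genotype difference is drawn from the counts of single genes. Cdk6, a kinase of the G1 phase, had 1 in KO L, 2 in WT L, 3 in KO S and 0 in WT S. The related kinase gene Cdk14 had 0 in KO L, 1 in WT L, 0 in KO S and 3 in WT S. Lifr, the receptor subunit for the cytokine LIF that keeps mouse ES cells self-renewing, had 1 in KO S and 2 in WT S. Insr, the insulin receptor gene, had 3 sites, all in WT S. Pdgfd, a growth factor gene, had 4 sites, of which 1 was in KO L and 3 in the WT lists.

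Among the other genes, Sfi1 had 2 sites in KO S and 4 in WT S. Dtnb, which encodes beta-dystrobrevin, had 1 in KO L, 2 in WT L and 3 in WT S. Tiam2 had 1 in KO L and 4 in KO S, and all 4 sites of Frmd4a, a scaffold gene of cell polarity, were in KO L. Tulp4 had 1 in KO S and 3 in WT S. A pair of the WT S sites in Tulp4 lay at chr17:6170513 and chr17:6170532, with coverages of 52 and 53. Their contexts shared 3 or more 12-base words with those of 23 and 28 called lines at other loci. The remaining named genes had 3 sites each: Gp6, Nsmaf, Nudcd3, Vps50 and LOC108168726, each with sites in 2 lists, and the run genes Frmd8, Gm2885, Alkal1, Gm33007, Efr3b and Adcy1, each in 1 list. With counts this small, no gene was tested between genotypes.

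Sites were also counted in lists of genes, without regard to gene length. Of 15 imprinted genes in the proximal 5 Mb, 5 held a site: Usp29, Peg10, Pon2, Casd1 and Ppp1r9a. Imprinted genes are expressed from the copy of only 1 parent. Usp29, a paternally expressed gene of the Peg3 cluster at chr7:6730559-6967220, had 1 site in KO S and 4 in WT S. Peg10, a gene derived from a retrotransposon, had 2 sites in WT S within 22 bases. Together the 5 genes had 0 sites in KO L, 2 in WT L, 1 in KO S and 7 in WT S. The WT lists also held more of all proximal sites, and the genotypes were not compared on these genes.

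Of 6 genes for DNA modification and chromatin, Arid1b and Crebbp held sites. Crebbp, a histone acetyltransferase gene, had no site in the KO lists, 1 in WT L and 2 in WT S. Of 12 genes for ES cells and lineages, Esr1 and Lifr held sites. No site fell in the 2 nuclear long non-coding RNA genes present, in the 1 gene of the DNA break response, or in 15 genes of the chromosome 9 cluster of matrix metalloproteases and apoptosis regulators. None fell in the 27 Vmn1r or 17 Vmn2r pheromone receptor genes, the 15 Olfr odorant receptor genes or the 24 Zfp zinc finger genes. Over all genes the count was 167 of 1905, and no list was tested against it. The depth at these genes is unknown, so a gene without a site may have had few reads. Gene length was not taken into account either, and a short gene offers fewer adenines. Of the imprinted genes with a site, Usp29 is 237 kb and Ppp1r9a 263 kb long.

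Of 1281 RefSeq promoters in the proximal 5 Mb, taken from 250 bases before to 50 after a gene start, 2 held a called site. These promoters cover 0.364% of the length of the proximal 5 Mb and held 0.328% of its sites (2 of 610), against 0.379% of the sites in the rest (55 of 14521). In WT L an adenine at chr12:5437377, 83 bases before the start of Gm32214, had an IPD ratio of 2.52 at a coverage of 12. In KO S an adenine at chr8:3467642, 6 bases after the start of Pex11g, had an IPD ratio of 4.61 at a coverage of 11. Pex11g encodes a protein of the peroxisomal membrane. Its promoter is shown because that call was the nearer to its gene start, from RefSeq for GRCm38.p6, 5′ to 3′ on the gene's strand, with the called adenine in capitals.
Pex11g, chr8:3467599-3467898, minus strand: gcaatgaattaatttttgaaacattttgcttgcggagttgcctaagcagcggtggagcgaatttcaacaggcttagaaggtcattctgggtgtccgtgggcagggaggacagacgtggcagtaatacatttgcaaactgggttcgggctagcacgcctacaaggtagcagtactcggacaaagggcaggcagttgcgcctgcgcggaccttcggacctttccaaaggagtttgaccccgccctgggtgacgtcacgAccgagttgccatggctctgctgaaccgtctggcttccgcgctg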

How the data were processed

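Each deposited list gives called adenines with position, strand and a 41-base context. The submitters' processing notes name mm10 as the build, and a column of the files names the caller as kinModCall. The sources used here do not state the aligner, the caller's version, any filter or how replicates were combined. The score and the identification score are the authors' deposited values on the caller's own scale, with a lowest score of 20. The deposited coverage is an unnormalized signal of reads or passes at the base. The IPD ratio is a linear ratio as the authors deposited it. The modified fraction was deposited at a coverage of 11 or more, as a fraction, and is printed as a percent.

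No deposited call was filtered out. Sites were counted by position, and shares have exact Clopper-Pearson intervals at 95%. Medians have order-statistic intervals at 95%. These intervals cover counting error only and treat neighbouring calls as independent. Densities were compared by an exact binomial test, shares by two-sided Fisher tests, and odds ratios by Zelen's exact test, with Benjamini-Hochberg adjustment in each family. Densities were set against the next 10 windows of 5 Mb only, and odds ratios and shares against all other autosomal sites kept. Genes came from a RefSeq table and promoters from RefSeq sequences of GRCm38.p6.

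Genes were named when they held 3 or more proximal sites, at most 25, ranked by sites, sites per kb and symbol, and members of the gene lists from 1 site. Genes sharing all their sites with a higher ranked one were skipped. Sites were named when called in 2 lists, or when among the 2 highest of a list in identification score or IPD ratio, and not all of these are printed. Further bases, genes and runs were named after their values were seen. The members, gene lists and rules were chosen with earlier results of these data known. The intervals and tests were checked on simulated counts of independent sites, which lack the runs of neighbouring calls seen here. Python 3.11.15, scipy 1.17.1 and pandas 2.3.3 were used.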

Additional observations from a re-analysis of the deposited data

Results flagged for a closer look

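The KO to WT odds ratio of lying in the proximal 5 Mb was 0.850 in L and 1.25 in S. A test of the difference between L and S (Zelen's exact test) gave p = 0.0293, which became 0.0878 after adjustment over 3 tests of this kind. Sites were treated as independent, there was 1 list per group, and this test was added after the data were seen.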

How the results depend on the processing

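Of 408 recomputed values, 371 kept their side of the threshold or moved by less than their interval, but 40 of these changed direction without a call. No density or L to S ratio passed its test under any alternative, and 12 of 48 density ratios and 3 of 24 L to S ratios crossed 1. With the left-out windows put back, an alternative added after seeing the data, the satellite-like difference in WT S was -0.291 points. For the KO to WT odds ratio in S, coverage under 25 gave 1.31 and the highest value without 1 chromosome was 1.32, both past the threshold. With a proximal part of 10 Mb the AG difference in WT L passed at 6.97 points. The gene share difference in KO S lost its call at a score of 30 or more (-18.39 points), coverage under 25 (-12.62), identification score of 20 or more (-17.81), without the richest 100 kb window (-11.68), at 10 Mb (-5.57), against the next 5 Mb (-14.75) and without chromosome 11 (-10.11). In WT S it lost its call at a score of 30 or more (-20.1), coverage under 25 (-8.29), identification score of 20 or more (-19.36) and against the next 5 Mb (-6.98). The stricter scores left 27 and 48 proximal sites, or 15 and 30, in KO S and WT S. The satellite-like difference in WT S was 1.15 points (adjusted p = 0.0238 by Fisher's exact test). It rested on 3 calls of the satellite patch, with the satellite-rich windows left out of the rest, so nothing is drawn from that p-value. The difference fell short of the threshold at a score of 30 or more (2.01 points), identification score of 20 or more (3.33), 1 site per cluster (0.408) and against the next 5 Mb (0.482). It changed sign at coverage under 25 (-0.131), without the richest window (-0.115) and without chromosome 12 (-0.104), which remove the patch. The median IPD ratio moved at a score of 30 or more to 3.04 in KO L and 3.17 in WT S, at an identification score of 20 or more to 2.75 in KO L, and at coverage of 11 or more to 2.43 in WT S and 2.47 in WT L. The median modified fraction moved at a score of 30 or more to 88.3% in KO L, 79.7% in WT L, 100% in KO S and 83.2% in WT S, and at an identification score of 20 or more to 78.9% in WT S and 54.7% in WT L. The share in the first megabase, looked at after seeing the data, moved at an identification score of 20 or more to 0 of 6 sites in KO L and 46.7% in KO S, at a score of 30 or more to 15.4% in WT L, and at coverage of 11 or more to 40.9% in KO S. Where none is stated, the cause was not tested. No paired analysis was possible because both replicates of a group share 1 list.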
